A study of Homo sapiens with 4 samples.

Results

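The 150 most abundant long noncoding RNAs (lncRNAs) of HAP1 cells, a nearly haploid human line, were described in 4 RNA-seq libraries. They were chosen by their summed counts over all 4 libraries, among genes that GENCODE 44 annotates as lncRNA, with H19, MEG3, MEG8 and KCNQ1OT1 left out before ranking. The files listed 57820 genes, of which 12801 were lncRNA genes other than those 4, and 4843 of these had at least 1 count. The 150 members held between 65.3% and 66.9% of all lncRNA counts of a library. Because abundance chose the members, their high levels are a description and no finding. The difference between genotypes was not used as such, but both genotypes entered the sums. A gene near rank 150 could therefore enter through high counts in either genotype.

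The cells were untreated and belonged to 2 genotypes with 2 libraries each. In dKO cells RING1A and RING1B, the catalytic subunits of PRC1 that ubiquitinate histone H2A at lysine 119, were inactivated, and in tKO cells BAP1, the deubiquitinase for the same residue, was inactivated as well. By their labels all libraries therefore came from cells without RING1A and RING1B activity, and the comparison of tKO with dKO asks what the loss of BAP1 changes where this mark cannot be placed. RING1A and BAP1 carried an inserted STOP cassette, and the RING1B KO line was purchased. The study describes its replicates as independent biological ones.

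Libraries held between 16054590 and 18455410 counts in genes, with both tKO libraries below both dKO libraries. Levels are given as CPM, counts scaled to the counts in genes of each library, so that 3 counts, the floor used here, correspond to between 0.163 and 0.187 CPM, and floors and intervals cover counting error only. BAP1 had 111 and 112 CPM in the dKO libraries, 9.63 CPM in tKO 1 and 6.66 CPM in tKO 2. RING1 (RING1A) had between 0.650 and 0.945 CPM, whereas RNF2 (RING1B) had between 68.6 and 86.8 CPM in all libraries. The RNF2 transcript was thus still present, and its level does not show whether RING1B was inactive. By western blot, the paper reports that dKO and tKO cells wholly lacked the histone mark that RING1A and RING1B place. Of 7 haematopoietic markers, 4 had no count in any library and the highest count was 5, although the HAP1 line derives from a leukaemia. A stretch at the start of chromosome 3 (358 tested genes from CHL1 to ARHGEF3) had log2 ratios to the dKO mean with a median of -0.92 in tKO 2 and of 0.01 in tKO 1. A stretch of chromosome 10 (131 tested genes from ZMYND11 to ZNF37A) had a median of -0.97 in tKO 1 and -0.03 in tKO 2. Values of the 5 members in these stretches are given apart, and the part of the stretches in other values was not tested.

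lncRNAs are transcripts without a long open reading frame, and their genes fall into classes with different biology. Small nucleolar RNA (snoRNA) host genes carry, within their introns, the guides that direct methylation (C/D box) or pseudouridylation (H/ACA box) of ribosomal RNA. Their spliced exons are often exported, engaged by ribosomes and removed by nonsense-mediated decay, and several start with a pyrimidine tract like that of ribosomal protein genes. Other abundant lncRNAs stay in the nucleus, such as MALAT1 in nuclear speckles and NEAT1, the scaffold of paraspeckles. Many more are transcribed divergently from, or antisense to, a protein-coding gene.

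By RefSeq (GRCh38.p14, used for names and neighbourhood only), 23 members enclosed 58 snoRNA genes, 37 of the SNORD, 19 of the SNORA and 2 of the SCARNA class, among the 126 members found there. GAS5 enclosed 11 of them and SNHG1 enclosed 8. ZFAS1 encloses a small family, SNORD12C, SNORD12B and SNORD12, shown because such guides lie within the introns of their hosts. They lie on the plus strand of GRCh37 at chr20:47895477-47895565, chr20:47896856-47896946 and chr20:47897220-47897309, within the span of ZFAS1 (chr20:47894715-47916137). Capitals mark the C box (TGATGA) and the D box (CTGA).
SNORD12C: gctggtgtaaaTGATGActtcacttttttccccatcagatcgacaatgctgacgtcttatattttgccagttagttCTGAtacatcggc
SNORD12B: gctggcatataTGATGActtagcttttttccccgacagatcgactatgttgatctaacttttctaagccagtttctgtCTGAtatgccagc
SNORD12: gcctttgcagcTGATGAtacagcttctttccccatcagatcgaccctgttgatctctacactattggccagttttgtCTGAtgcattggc

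The starts of the hosts are shown because a pyrimidine tract at the first bases marks transcripts whose translation follows that of ribosomal proteins. Each window holds the 15 bases before and the 15 bases from the start of the canonical transcript (GENCODE 44 lifted to GRCh37), on the gene's strand. Capitals mark a C followed by at least 4 further C or T that begins within 5 bases of the start. The windows are chr1:173837113-173837142 (minus strand) for GAS5, chr17:16342336-16342365 (plus) for SNHG29, chr20:47895164-47895193 (plus) for ZFAS1, chr4:53578653-53578682 (plus) for DANCR and chr9:139622622-139622651 (minus) for SNHG7. Those of SNHG1 at chr11:62623380-62623409 (minus) and SNHG16 at chr17:74553842-74553871 (plus) held no such run at the annotated start.
GAS5: caggcaccatactgtCTTTTCgaggtagga
SNHG29: cacataaggtgtgaCCTTTTCattcccgtt
ZFAS1: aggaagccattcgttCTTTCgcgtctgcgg
DANCR: ccgtcgcaggtcgcaggCCTCTTTgtcagc
SNHG7: gcttcccttctcgtCCTCTgcgtgcgccgg
SNHG1: cccgtgggcctctgcggcatggtatttaat
SNHG16: tctcgcgttcttttcgaggtcggccgcgtg

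Such a run was found at 7 of 23 host starts (30.4%), at 20.5% of the starts of the other 127 members, at 16.4% of all lncRNA starts and at 18.5% of protein-coding starts. Ribosomal protein genes held it at 53 of 82 starts (64.6%). A run of at least 7 within 10 bases of the start was found at 3 of 23 host starts (13.0%), near the 10.2% of the other members, 11.1% of all lncRNA starts and 11.5% of protein-coding starts, and at 76.8% of ribosomal protein starts. The match is a description of letters at annotated starts, on the transcribed strand only, and the shorter run was taken after the longer had been counted.

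Mean levels of the members ran from 10.7 to 830 CPM with a median of 20.8 CPM. Of the 150, 13 lay above 100 CPM, 11 between 50 and 100, 56 between 20 and 50, and 70 below 20. The lowest count of any member in any library was 77, so that all 150 passed the filter on low values. At the end of the ranking, GATA2-AS1 with 740 and SH3BP5-AS1 with 739 summed counts were inside, and TENM3-AS1 with 738 and MIR924HG with 731 were outside.

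The members took 0.627% of gene counts in dKO 1 (95% Wilson interval 0.623 to 0.630), 0.663% in dKO 2 (0.659 to 0.667), 0.660% in tKO 1 (0.656 to 0.664) and 0.695% in tKO 2 (0.691 to 0.699). The genotypes overlapped, with means of 0.645% ± 0.0257 for dKO and 0.678% ± 0.0249 for tKO (SD, n = 2 each), and an exact two-sided permutation test gave p = 0.667. With 2 libraries against 2 this test cannot go below 0.333. The 10 most abundant members held between 42.4% and 43.9% of the members' counts in every library.

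SNHG29 (chr17:16342081-16383563), the host of SNORD49A, SNORD49B and SNORD65, was the most abundant member in each library. It had 811 and 849 CPM in the dKO libraries, 739 CPM in tKO 1 and 920 CPM in tKO 2, so that the dKO values lay between those of tKO. SNHG29 alone held between 11.2% and 13.2% of the members' counts. SNHG1 (chr11:62619450-62623425), host of SNORD22 and SNORD25 to SNORD31, had 307 and 344 CPM in dKO and 347 and 374 CPM in tKO. Both tKO values exceeded both dKO values, by a margin smaller than the gap between the dKO libraries. GAS5 (chr1:173827697-173838020), named for its accumulation in growth-arrested cells, had 253 and 274 CPM in dKO and 305 and 329 CPM in tKO.

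OIP5-AS1 (chr15:41576156-41614590), a conserved cytoplasmic lncRNA also called cyrano, had 285 and 301 CPM in dKO and 291 and 276 CPM in tKO. NORAD (chr20:34633540-34638940), which binds PUMILIO proteins in the cytoplasm, had 185 and 188 CPM in dKO and 187 and 195 CPM in tKO. For both genes every tKO value was within 6% of the dKO mean, and their log2 fold changes were -0.04 ± 0.089 and 0.04 ± 0.086 (SE). TBX5-AS1 (chr12:114845936-114850637), transcribed away from the cardiac and limb regulator TBX5, had 145 and 151 CPM in dKO, 177 CPM in tKO 1 and 145 CPM in tKO 2. SNHG16, host of 3 SNORD1 genes, had 112 and 116 CPM in dKO and 120 and 121 CPM in tKO, the narrowest range among the 8 most abundant hosts. SNHG6, whose mean was 81.9 CPM, had its tKO values of 80.0 and 82.7 CPM between its dKO values of 75.7 and 89.3 CPM.

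**Figure D1:**
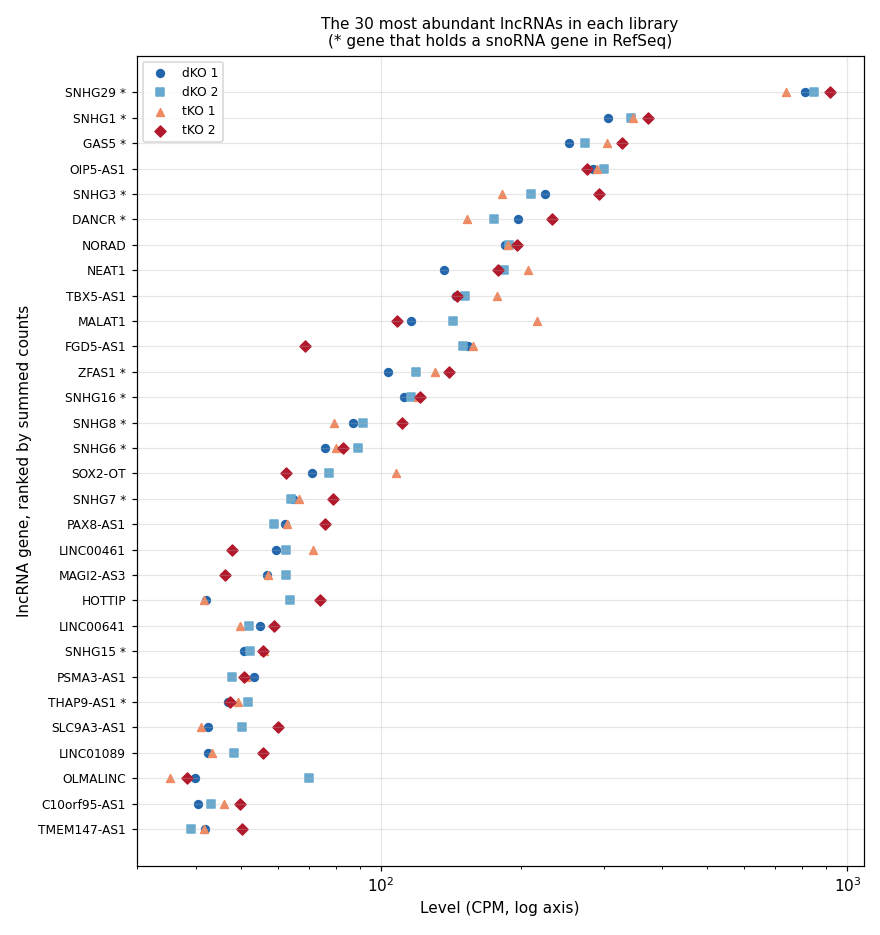
Level in CPM (log axis) of the 30 most abundant lncRNAs in each library, with 1 point per library and genes ordered by summed counts. SNHG29 stands above all others in every library, and FGD5-AS1 shows its tKO 2 point (68.5 CPM) far below the other libraries (150 to 157 CPM).

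Counts grow with transcript length, so levels were also compared per kb of merged exons (GENCODE 44). On this scale the order was SNHG29 with 92.7 CPM per kb, SNHG1 with 86.3, GAS5 with 58.9, SNHG19 with 58.4 and SNHG3 with 55.6, all of them snoRNA hosts. The median over the 150 members was 4.02 CPM per kb. SNHG19 reached this place with a mean of 35.9 CPM because its merged exons span 614 bases. The merged exons of a gene with many isoforms overstate its length. With the mean transcript length the first 5 were SNHG29, GAS5, SNHG1, OIP5-AS1 and SNHG3, and the median was 10.8 CPM per kb. Reads were counted over GENCODE 19 genes, so both GENCODE 44 lengths can include exons that were not counted.

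No member was differentially expressed (DE, adjusted p below 0.05 and more than 2-fold in limma) between tKO and dKO. Among all 15136 tested genes 2 were DE (0.0132%), and the smallest adjusted p of a member was 0.996. DE members also numbered 0 by the edgeR quasi-likelihood test, with 1 DE gene in all, and by DESeq2, with 25. The smallest adjusted p of a member by DESeq2 was 0.436. By each, 6 members (4.0%) had an unadjusted p below 0.05, against 3.50% of all tested genes by edgeR and 2.12% by DESeq2. At an unadjusted p below 0.05, 5 members were higher in tKO (3.33%, against 1.4% of all tested genes) and 1 was lower (0.667%, against 2.15%). No member differed by more than 2-fold in limma, as did 1.78% of all tested genes, and 1 member did by edgeR and by DESeq2, ENSG00000230699. The fit compares 2 libraries with 2, and the count of DE members rests on both tKO libraries entering the fit. Without tKO 1, 3 members were over 2-fold, against 666 of the 15136 tested genes. These were FGD5-AS1, CHROMR and ENSG00000230699, with log2 fold changes of -1.15, -1.02 and 1.51. Without tKO 2, 1 member was over 2-fold, against 374 tested genes, namely MIR1915HG with -1.57. Tests in such fits assume that the lone tKO library varies as the dKO libraries do.

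The median log2 fold change of the members was 0.06, against 0.00 over all tested genes, and it was positive for 99 of 150. Leaving out a library moved this median between 0.02 (without tKO 2) and 0.11 (without tKO 1). By library, log2 ratios to the dKO mean had a median of 0.02 in tKO 1 and 0.11 in tKO 2. Both tKO libraries lay above both dKO libraries for 40 members (26.7%), compared with 15.8% of all tested genes and 15.3% of the 10130 genes with at least 739 summed counts. Both lay below for 11 members (7.33%), compared with 15.9% of all and 15.5% of those genes. With library totals in place of TMM factors these counts were 34 and 12.

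The 5 members with the smallest p among those higher in tKO were GABPB1-AS1, ENSG00000230699, GAS5, ZFAS1 and FIRRE, none past the adjusted threshold in limma. GABPB1-AS1, antisense across the start of the gene of the transcription factor subunit GABPB1, had 33.6 and 38.2 CPM in dKO and 45.2 and 51.6 CPM in tKO, a log2 fold change of 0.43 ± 0.129 (SE, unadjusted p = 0.0130 in limma). GAS5 differed by 0.27 ± 0.090 on the log2 scale (unadjusted p = 0.0213 in limma). ZFAS1, antisense across the start of ZNFX1, had 103 and 119 CPM in dKO and 130 and 140 CPM in tKO, a log2 fold change of 0.29 ± 0.105 (unadjusted p = 0.0290 in limma). FIRRE, an X-linked lncRNA that organises nuclear chromatin contacts, had 13.3 and 12.3 CPM in dKO and 16.3 and 18.4 CPM in tKO. In all 5 genes both tKO libraries lay above both dKO libraries, beside 15.8% of all tested genes. Their choice by the smallest p among genes higher in tKO largely entails this, so it adds no support.

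ENSG00000230699 (chr1:846815-850328), known by its identifier only, had 11.9 and 11.6 CPM in dKO, 16.1 CPM in tKO 1 and 33.9 CPM in tKO 2. Its fold change was 0.99 ± 0.324 on the log2 scale (SE, unadjusted p = 0.0197 in limma) and came mainly from tKO 2, which reached 289% of the dKO mean against 137% in tKO 1. LINC02593, which lies next to it on chromosome 1, had 15.9 and 14.7 CPM in dKO and 15.05 and 20.2 CPM in tKO.

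The 5 members with the smallest p among those lower in tKO were ENSG00000261786, LINC00632, LINC01018, DHRS4-AS1 and OLMALINC. ENSG00000261786 lies in the chromosome 3 stretch and had 27.3 and 31.5 CPM in dKO, 22.2 CPM in tKO 1 and 15.7 CPM in tKO 2. LINC00632, the X-linked precursor of the circular RNA Cdr1as, had 12.5 and 13.0 CPM in dKO and 7.86 and 10.5 CPM in tKO, a log2 fold change of -0.48 ± 0.203 (SE, unadjusted p = 0.0517 in limma). Gene counts cannot tell its linear from its circular forms. LINC01018 had 12.2 and 12.8 CPM in dKO, 10.4 CPM in tKO 1 and 7.29 CPM in tKO 2. DHRS4-AS1, which lies beside a cluster of related DHRS4 genes, had 17.9 and 22.2 CPM in dKO and 13.2 and 16.9 CPM in tKO. OLMALINC had 40.0 CPM in dKO 1 and 69.9 CPM in dKO 2, whereas the tKO libraries had 35.2 and 38.3 CPM, so that its difference rested on dKO 2.

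The 23 snoRNA hosts held 41.7% and 41.0% of the members' counts in dKO and 39.2% and 44.6% in tKO (exact two-sided permutation p = 1.00, n = 2 each). Of the 23 hosts, 11 had both tKO values above both dKO values (beside 15.8% of all tested genes), none had both below, and 2 had an unadjusted p below 0.05, GAS5 and ZFAS1. Their median log2 fold change was 0.09 beside 0.06 for all members, and it was 0.19 without tKO 1 and 0.05 without tKO 2. Relative to the dKO mean their median log2 ratio was 0.05 in tKO 1 and 0.19 in tKO 2. The hosts without overlap between genotypes were SNHG1, GAS5, ZFAS1, SNHG16, SNHG7, SNHG15, SNHG12, SNHG5, SNHG17, SNHG20 and SNHG11.

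A second set of hosts went in opposite directions in the tKO libraries. SNHG3, host of SNORA73A and SNORA73B, had 224 and 210 CPM in dKO, 182 CPM in tKO 1 and 293 CPM in tKO 2. DANCR, host of SNORA26 and named for its role in holding back differentiation, had 197 and 175 CPM in dKO, 153 CPM in tKO 1 and 232 CPM in tKO 2. SNHG8, host of SNORA24, had 87.2 and 91.4 CPM in dKO, 79.1 CPM in tKO 1 and 111 CPM in tKO 2. With SNHG29, these hosts were lowest in tKO 1 and highest in tKO 2, and their log2 fold changes were between -0.0047 and 0.095 with SE between 0.114 and 0.202.

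Genes for the proteins that bind snoRNAs, among them fibrillarin (FBL) and dyskerin (DKC1), showed a median log2 fold change of 0.03 over 12 genes, with 1 at an unadjusted p below 0.05, which was higher in tKO. Factors of nonsense-mediated decay, which removes many spliced host transcripts, showed a median of 0.11 over 10 genes, with none at an unadjusted p below 0.05. No gene of either list was DE.

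Of the nuclear RNAs listed, 5 were members, namely MALAT1, NEAT1, JPX, MIAT and FIRRE. MALAT1 (chr11:65265111-65275544) had 116 and 143 CPM in dKO, 216 CPM in tKO 1 and 108 CPM in tKO 2, so that tKO 2 lay below both dKO libraries and tKO 1 above them. NEAT1 (chr11:65190245-65213011) had 137 and 183 CPM in dKO, 207 CPM in tKO 1 and 178 CPM in tKO 2. Gene counts cannot tell apart the 9 transcripts annotated for NEAT1. MIAT, an RNA of nuclear bodies expressed in neural cells, had 19.3 and 24.2 CPM in dKO, 40.4 CPM in tKO 1 and 19.3 CPM in tKO 2. MALAT1 and MIAT thus had 167% and 186% of the dKO mean in tKO 1 and 83.4% and 88.7% in tKO 2. JPX, a gene next to XIST in the X inactivation centre, had 26.7 and 29.0 CPM in dKO and 31.6 and 29.2 CPM in tKO.

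The median log2 fold change of these 5 members was 0.28, and that of the 9 genes of the list that were tested was 0.37, positive for all 9. By library the 5 members had a median of 0.40 in tKO 1 and 0.06 in tKO 2, and the dKO libraries themselves differed by a median of 0.28 (dKO 2 over dKO 1). For the 5 members the difference between genotypes was thus about as large as that between dKO replicates. The 9 tested genes, which include these 5, had 0.37 beside the same 0.28 between dKO libraries. Both tKO values lay above both dKO values for 2 of the 5 members and 5 of the 9 genes (beside 15.8% of all tested genes). FIRRE, with a log2 fold change of 0.43 ± 0.164 (SE, unadjusted p = 0.0350 in limma), was the only nuclear RNA among the members below an unadjusted p of 0.05. Genes for 11 paraspeckle and nuclear speckle proteins, such as NONO, SFPQ and SON, had a median log2 fold change of 0.08, and none was at an unadjusted p below 0.05.

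MALAT1 ends in a genome-encoded A-rich tract rather than an ordinary poly(A) tail, which is shown because these libraries were made from poly(A)-selected RNA. The tract lies on the plus strand of GRCh37 at chr11:65273560-65273589, 1957 bases before the annotated gene end. Capitals mark a run of at least 7 A followed by GCAAAA, searched on the gene's strand.
MALAT1: ttctagcttAAAAAAAAAAAAAGCAAAAga
The same motif was present in the spans of 5 of the 150 members. What part of the MALAT1 level depends on this tract was not tested.

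**Figure D2:**
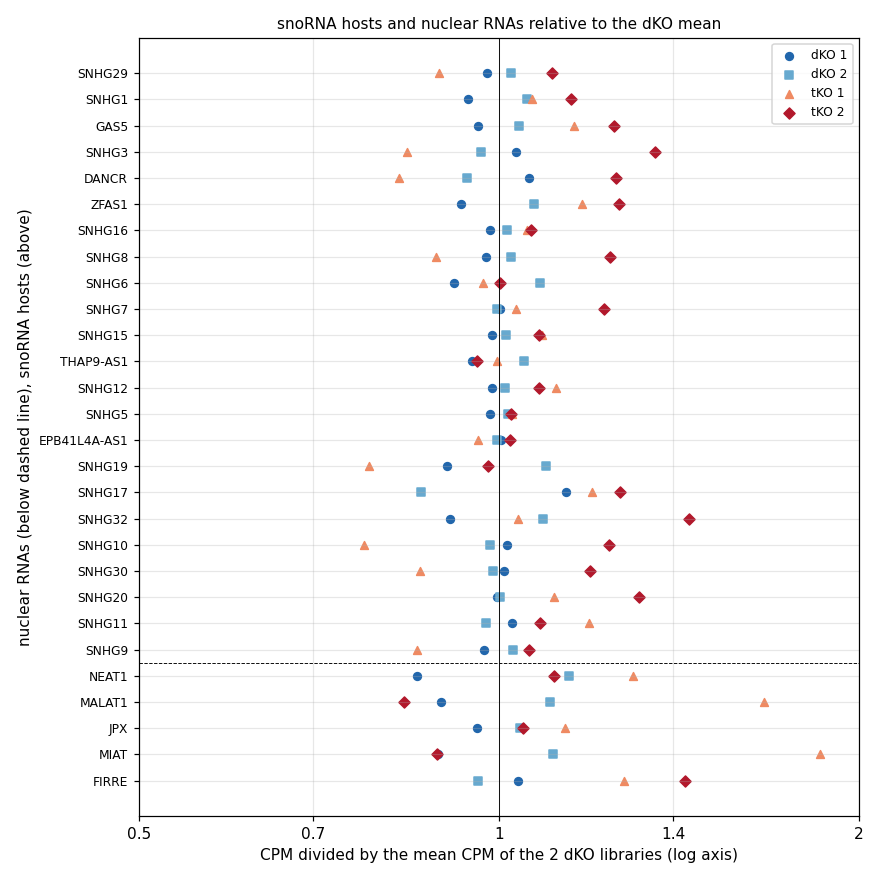
CPM of each snoRNA host (above the dashed line) and nuclear RNA (below it) divided by the mean of the 2 dKO libraries, on a log axis, with 1 point per library. SNHG29, SNHG3, DANCR and SNHG8 show tKO 1 on the left and tKO 2 on the right, and MALAT1 and MIAT show the reverse order.

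By RefSeq, 10 members enclosed 16 miRNA genes. MIR17HG (chr13:91999940-92049846), the oncogenic miR-17-92 cluster, had 34.6 and 35.6 CPM in dKO, 38.7 CPM in tKO 1 and 27.0 CPM in tKO 2. DLEU2 (chr13:50530806-50699856), the gene of miR-15a and miR-16-1 that is often deleted in chronic lymphocytic leukaemia, had 19.6 and 18.0 CPM in dKO, 30.9 CPM in tKO 1 and 13.3 CPM in tKO 2. Its tKO libraries lay on opposite sides of the dKO values, at 164% and 71.0% of their mean. The median log2 fold change over the 10 members was 0.15, or 0.07 with unstranded counts, and none had an unadjusted p below 0.05. These counts are reads of the host transcripts, and the mature miRNAs were not measured.

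The better known arm of each miRNA of both hosts is shown because several share a seed, with the seed (bases 2 to 8) in capitals (RefSeq, GRCh38.p14). The other arms are not printed, and most of them have seeds of their own. In MIR17HG, miR-17-5p and miR-20a-5p share a seed, as do miR-19a-3p and miR-19b-3p. In DLEU2, miR-15a-5p and miR-16-5p share a seed.
hsa-miR-17-5p: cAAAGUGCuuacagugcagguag
hsa-miR-20a-5p: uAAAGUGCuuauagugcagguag
hsa-miR-18a-5p: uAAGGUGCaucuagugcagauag
hsa-miR-19a-3p: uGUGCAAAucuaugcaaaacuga
hsa-miR-19b-3p: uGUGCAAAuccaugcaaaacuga
hsa-miR-92a-3p: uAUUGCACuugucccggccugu
hsa-miR-15a-5p: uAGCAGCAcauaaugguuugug
hsa-miR-16-5p: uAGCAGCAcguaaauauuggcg

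Members were further apart between the 2 tKO libraries than between the 2 dKO libraries. The SD of the log2 difference over the 150 members was 0.220 between dKO libraries and 0.437 between tKO libraries. Without the 5 members in the chromosome 3 and 10 stretches the latter was 0.386. Over the 10130 genes with at least 739 summed counts the corresponding SDs were 0.173 and 0.356. Between tKO libraries 7 members differed by more than 2-fold (4.67%, against 2.37% of those genes), and between dKO libraries none did. Outside the stretches the count between tKO libraries was 4 of 145 (2.76%). The background of 2.37% still includes genes of the stretches, so these shares are not like for like. The median absolute log2 difference between tKO libraries was 0.247 over these 145 members and 0.154 over the 10130 genes. Between dKO libraries the corresponding medians were 0.120 and 0.106. Over the 150 members, the log2 ratio of tKO 2 to tKO 1 fell with log2 merged exon length (Pearson -0.24, Spearman -0.19). Outside the stretches the Pearson value was -0.25. It was 0.01 for dKO 2 over dKO 1, and -0.02 for tKO 2 over tKO 1 in 10029 background genes. The median log2 ratio was 0.13 in the 50 shortest members and 0.09 in the 50 longest. What part length had in the spread was not tested.

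Against the dKO mean, tKO 1 had no member more than 2-fold higher (background 0.0592% of those 10130 genes) and 1 more than 2-fold lower (background 0.494%). This was MIR1915HG (chr10:21779201-21786189), inside the chromosome 10 stretch, which had 14.7 and 14.0 CPM in dKO, 4.69 CPM in tKO 1 and 17.6 CPM in tKO 2. Its log2 ratio of -1.57 in tKO 1 was larger in size than the stretch median of -0.97. In tKO 2, 1 member was more than 2-fold higher (background 0.227%), the ENSG00000230699 described above, and 2 were more than 2-fold lower (background 1.28%), FGD5-AS1 and CHROMR.

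FGD5-AS1 (chr3:14961854-14989931) had 154 and 150 CPM in dKO, 157 CPM in tKO 1 and 68.5 CPM in tKO 2, or 45.1% of the dKO mean. It lies in the chromosome 3 stretch. The other members of that stretch were also lowest in tKO 2. THUMPD3-AS1 had 27.96 and 28.2 CPM in dKO, 25.7 CPM in tKO 1 and 15.7 CPM in tKO 2. SH3BP5-AS1 had 12.3 and 10.3 CPM in dKO, 13.4 CPM in tKO 1 and 6.60 CPM in tKO 2. Of the 3 members of chromosome 3 outside the stretch, SOX2-OT was also lowest in tKO 2, at 62.7 CPM against 71.0 and 77.3 CPM in dKO. In tKO 2 MUC20-OT1 had 21.6 CPM against 20.4 and 19.8 CPM in dKO, and GATA2-AS1 had 13.7 CPM against 9.75 and 9.56 CPM in dKO.

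CHROMR (chr2:179278362-179304970), a lncRNA of cholesterol homeostasis, lies in neither stretch and had 18.4 and 16.8 CPM in dKO, 16.8 CPM in tKO 1 and 8.66 CPM in tKO 2. LINC01224 lies in a window of chromosome 19 rich in zinc finger genes, whose 24 tested genes had a median log2 ratio of -1.32 in tKO 2, and had 21.1 and 19.3 CPM in dKO, 20.3 CPM in tKO 1 and 14.1 CPM in tKO 2.

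**Figure D3:**
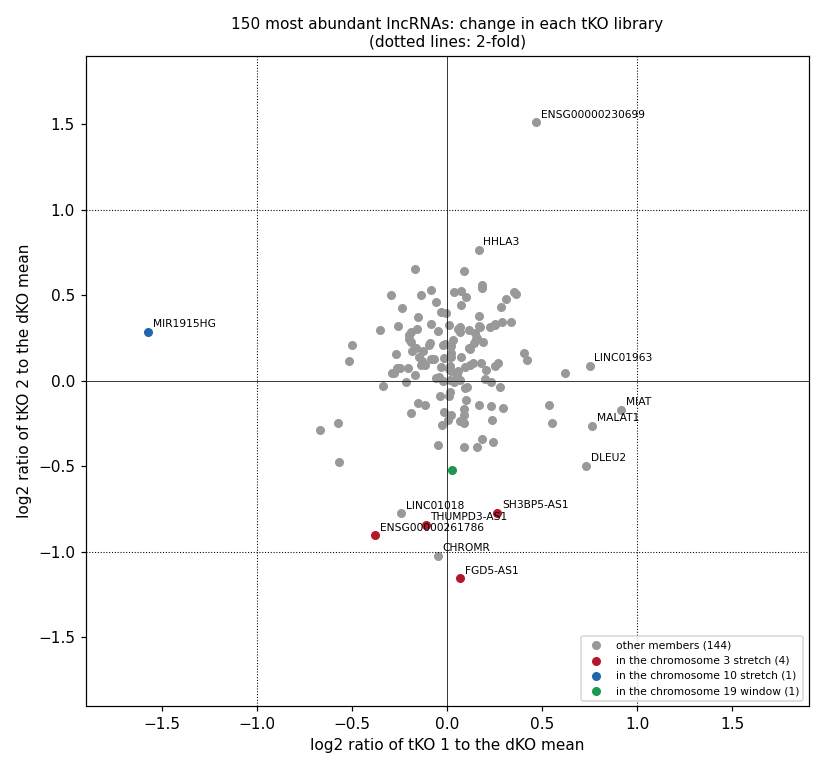
Log2 ratio to the dKO mean in tKO 1 (horizontal) and tKO 2 (vertical) for the 150 members, with 1 point per gene, dotted lines at 2-fold, and colours for members of the chromosome 3 and 10 stretches and the chromosome 19 window. FGD5-AS1 and CHROMR lie below the lower line, ENSG00000230699 above the upper line and MIR1915HG left of the left line, and MALAT1, MIAT and DLEU2 lie to the right with negative values in tKO 2.

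By symbol, 64 members were antisense or divergent transcripts (suffixes AS, DT, IT or OT). Their median log2 fold change was 0.09, beside 0.02 for the 624 tested genes with such symbols, but 0.02 without dKO 1 and 0.03 without tKO 2. Both tKO values lay above both dKO values for 17 of them and below for 5, against 15.8% and 15.9% of all tested genes. Of all members, 87 had a tested protein-coding neighbour on the opposite strand that overlapped them or started within 1 kb, in 100 pairs.

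Neighbours differed in how far they followed their lncRNA. PAX8-AS1 had 62.2 and 59.0 CPM in dKO and 62.8 and 75.9 CPM in tKO. PAX8, a regulator of kidney and thyroid development that overlaps it, had 4.44 and 3.50 CPM in dKO and 3.47 and 4.24 CPM in tKO. Both genes of this pair were thus higher in tKO 2 than in tKO 1, but the PAX8 values were no further apart in tKO than in dKO. MAGI2-AS3 had 57.0 and 62.4 CPM in dKO and 57.1 and 46.2 CPM in tKO. MAGI2, whose start lies 790 bases away, had 9.43 and 10.4 CPM in dKO, 7.01 CPM in tKO 1 and 13.8 CPM in tKO 2, so that the tKO libraries differed in opposite directions in this pair. SOX2-OT, which spans the gene of the stem cell regulator SOX2 on the same strand, had 107 CPM in tKO 1 and 62.7 CPM in tKO 2. DNAJC19, a mitochondrial import gene that starts 12 bases from it, had 30.2 and 32.2 CPM in dKO and 32.7 and 32.8 CPM in tKO.

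TBX5, whose start lies 311 bases from that of TBX5-AS1, had 80.3 and 77.4 CPM in dKO and 78.7 and 69.9 CPM in tKO. OIP5, which overlaps OIP5-AS1, had 26.9 and 28.3 CPM in dKO and 34.1 and 31.3 CPM in tKO (log2 fold change 0.25, adjusted p = 0.996 in limma), while OIP5-AS1 stayed within 6% of its dKO mean. NR2C2, a nuclear receptor gene whose start overlaps that of FGD5-AS1, had 33.3 and 30.6 CPM in dKO, 33.6 CPM in tKO 1 and 19.2 CPM in tKO 2, so that both genes of this chromosome 3 pair were low in tKO 2.

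Further pairs, chosen after their values were seen, lie at developmental genes. HOTTIP, at the end of the HOXA cluster, had 42.1 and 63.9 CPM in dKO and 41.7 and 73.9 CPM in tKO, and HOXA13 beside it had 125 and 143 CPM in dKO and 129 and 136 CPM in tKO. HOXA11-AS had 23.1 and 28.5 CPM in dKO and 27.0 and 22.5 CPM in tKO, and HOXA11 had 41.2 and 41.3 CPM in dKO and 40.8 and 42.2 CPM in tKO. SOX21-AS1 had 19.2 and 23.9 CPM in dKO and 22.5 and 19.2 CPM in tKO, whereas SOX21, a SOX family factor of neural progenitors, had 47.5 and 42.4 CPM in dKO, 60.0 CPM in tKO 1 and 23.8 CPM in tKO 2. DLX6-AS1 had 14.0 and 14.2 CPM in dKO, 21.5 CPM in tKO 1 and 14.6 CPM in tKO 2, and DLX6 had 29.2 and 28.5 CPM in dKO, 30.6 CPM in tKO 1 and 19.6 CPM in tKO 2. None of these genes was DE.

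Taking 1 neighbour per member, the one with the nearest start, the log2 ratios of lncRNA and neighbour had a Pearson correlation across the 87 genes of 0.14 in tKO 1 and 0.33 in tKO 2. The latter was 0.05 over the 84 pairs outside the stretches. For the 49 pairs whose starts lay within 1 kb it was 0.37 and 0.48. Without the 2 such pairs in the chromosome 3 stretch, the value for tKO 2 was 0.05 over 47 pairs, and that for tKO 1 was 0.36. These correlations are across genes, which are not independent replicates, and the values of a pair share a library and the same dKO mean.

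**Figure D4:**
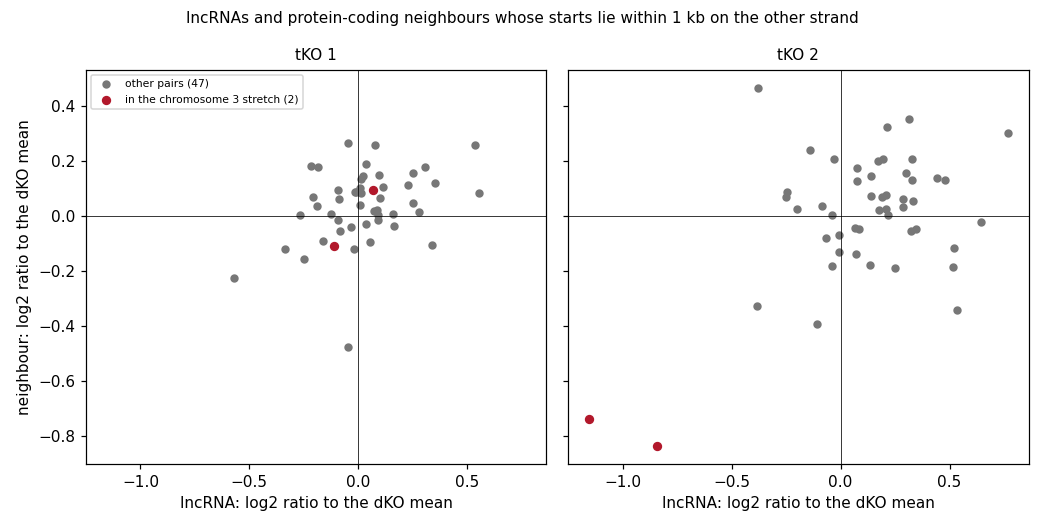
Log2 ratio to the dKO mean of lncRNA members (horizontal) and of the protein-coding neighbour that starts within 1 kb on the other strand (vertical) in tKO 1 (left) and tKO 2 (right), with 1 point per pair. The 2 pairs of the chromosome 3 stretch stand apart at the lower left in tKO 2 only, and the remaining 47 pairs scatter around 0 on both axes.

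Antisense genes depend on the separation of strands. The column of the opposite strand held a median of 0.355% of the stranded reads of a member, and 105 members had less than 1% there. For 19 members it held more than 10% and for 6 more than 50%, namely PCBP1-AS1 (85.8%), MCM3AP-AS1 (73.5%), ENSG00000248015 (70.0%), TMPO-AS1 (56.8%), SH3BP5-AS1 (53.6%) and VASH1-AS1 (53.4%). PCBP1, an abundant RNA-binding protein gene within the span of PCBP1-AS1, had between 284 and 337 CPM against between 22.6 and 26.4 CPM for PCBP1-AS1. Whether a part of the PCBP1-AS1 reads came from incomplete strand marking was not tested. Among the hosts SNHG7 had 30.1% of its stranded reads on the other strand. In all, 29 members, some of them among the 19, overlap a protein-coding gene span on their own strand, such as OIP5-AS1 with NUSAP1 and SNHG3 with RCC1, and for these the strand does not separate the transcripts. ENSG00000187951 lies among duplicated genes of chromosome 15 and RNF216P1 is a pseudogene, so their counts are uncertain.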

How the data were processed

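The deposited files gave raw counts of reads for each gene in 4 libraries. The authors made stranded libraries from poly(A)-selected RNA, trimmed them (Trim Galore 0.4.4, cutadapt 1.12), removed ribosomal RNA reads (bowtie 1.2) and counted uniquely mapped reads with STAR (2.5.2b) over GENCODE 19 genes of GRCh37. The stranded column holding most gene reads was used, and the other strand column took between 4.01% and 4.24% of stranded gene reads. Symbols, biotypes, positions and lengths came from GENCODE 44 lifted to GRCh37, matched by identifier for 96.1% of the genes.

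Genes above 0.5 CPM in at least 2 libraries were kept (15136). log2-CPM values (TMM, prior count 2, edgeR 4.0.16) were fitted with limma (3.58.1, R 4.3.3, mean-variance trend, genotype as the only term), with Benjamini-Hochberg adjustment over all tested genes. The log2-CPM scale of the fold changes understates the change of low genes. DESeq2 (1.42.0) and the edgeR quasi-likelihood test were alternatives. The fit was tested on simulated counts, drawn with the same random spread for every gene and the same expected levels in both tKO libraries. In the data the tKO libraries were further apart than the dKO libraries, a setting that the simulation did not cover. CPM values printed per library use gene count totals without TMM factors, and log2 ratios use TMM.

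Named members were the 15 with most counts, the 5 with the smallest p in each direction, the 8 most abundant snoRNA hosts, the nuclear RNAs, those over 2-fold from the dKO mean in a tKO library, those in the 2 stretches, those next to rank 150, the first 6 antisense or divergent members with their neighbours and the first 5 per kb. Others were named after their values were seen. The members, the lists and the tests were chosen with earlier results of these data known.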

Additional observations from a re-analysis of the deposited data

How the results depend on the processing

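With 2 libraries per genotype, calls rest on few degrees of freedom. Members that were DE numbered 0 in all fits with 4 libraries, beside between 0% and 0.165% of all tested genes. Members were DE only in fits without a tKO library, which leave 1 tKO library. Members at an unadjusted p below 0.05 numbered 6, and from 3 (without either dKO library) to 47 (without tKO 1), with 24 without tKO 2. Among all tested genes the shares at this p were 3.55% with all libraries, 17.9% without tKO 1, 10.6% without tKO 2, 1.72% without dKO 1 and 0.766% without dKO 2. Members over 2-fold numbered 0 in limma, 1 by the edgeR quasi-likelihood test and 1 by DESeq2, both added after seeing the data, and from 0 to 3 with a library left out. With the replicate number as a block, 13 members were at an unadjusted p below 0.05 (8.67%, against 4.94% of all tested genes) and 0 were DE, among 13 DE genes in all. Libraries of the same number share only that number (correlation of deviations 0.06). The median log2 fold change of the nuclear RNAs was 0.28, and it ran from 0.060 without tKO 1 to 0.40 without tKO 2, with 0.11 without dKO 1. Members over 2-fold from the dKO mean in tKO 1 numbered 1, 2 without either dKO library, and 0 without the members of both stretches, an alternative chosen after seeing the data. The median level of 4.02 CPM per kb became 10.8 with mean transcript lengths. The cause of these shifts was not tested, apart from the members and libraries that each alternative removes.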

Other observations

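The X chromosome held 6 members. Beside JPX, FIRRE and LINC00632, these were LINC01278 with 28.6 and 29.3 CPM in dKO and 31.1 and 33.1 CPM in tKO, ZNF674-AS1 with 21.3 and 18.9 CPM in dKO and 19.98 and 21.2 CPM in tKO, and ENSG00000271533 with 26.4 and 24.1 CPM in dKO and 21.8 and 22.2 CPM in tKO. Further members of known biology were PURPL, a lncRNA induced by p53, with 16.4 and 18.2 CPM in dKO and 15.5 and 18.8 CPM in tKO, and CRNDE, often raised in colorectal tumours, with 38.5 and 48.5 CPM in dKO and 42.8 and 37.1 CPM in tKO. CHASERR, which lies upstream of the chromatin remodeller gene CHD2 and keeps its expression low, had 31.8 and 32.2 CPM in dKO and 35.6 and 29.2 CPM in tKO. These genes were chosen after their values were seen, and none was DE in limma.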
